A study of Mus musculus with 4 samples.

Results

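Monocytes in S phase were the cells of this series whose messenger RNA was richest in DNA replication genes, and they numbered 873 of 8718 cells. Classical monocytes had been sorted by flow cytometry from the bone marrow of C57BL/6 wild-type mice as Ly6G- CD11b+ CD115+ Ly6C high cells. The groups were young males of 14 weeks, old males of 27 months, young females of 15 weeks and old females of 26.5 months, with 5 mice in each. Every mouse carried its own hashtag antibody, and all mice of a sex were sequenced in a single library, so that sex and experiment cannot be told apart. Members were chosen on their own RNA. The S score of a cell was the share of its gene UMIs (unique molecular identifiers, 1 for each captured transcript) that came from Mcm2, Mcm3, Mcm5, Mcm6, Mcm7, Lig1, Dut and Tipin. The M score was the same share for Top2a, Mki67, Ube2c, Birc5, Nusap1, Ccnb2, Cenpa and Cdc20. The top 10% of S score in each library, less the top 10% of M score, made up the S-phase monocytes, and 0 cells stood in both. Males gave 123 S-phase cells of 1226 (58 old, 65 young) and females 750 of 7492 (371 old, 379 young). No barcode was shared by the libraries.

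In S phase a cell copies its DNA a single time. Before it begins, the MCM proteins are loaded onto replication origins as an inactive helicase, and the E2F transcription factors, released from the retinoblastoma family by cyclin-dependent kinases, switch on the genes for the helicase, the polymerases and the enzymes that make deoxynucleotides. Monocytes in the marrow arise from dividing progenitors and lose the ability to divide as they mature.

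The genes of the rule have different parts in this process. Mcm2, Mcm3, Mcm5, Mcm6 and Mcm7 encode subunits of the replicative helicase, Lig1 encodes the ligase that joins Okazaki fragments, Dut encodes the enzyme that keeps uracil out of DNA, and Tipin encodes a partner of Timeless at the replication fork. RefSeq promoters (GRCm38.p6, 250 bases before to 50 after the start of a gene) of 7 of these 8 genes were at hand, and those of Lig1, Mcm3, Mcm5, Mcm6 and Mcm7 held an E2F motif, searched as TTTCCCGC, TTTCGCGC, TTTGCCGC or TTTGGCGC on both strands. The motif was present in 744 of all 32851 promoters (2.26%). None of the promoters of the 8 M genes held it, whereas 6 of those 8 held the CHR motif of genes used in mitosis (TTTGAA on both strands), which 17.9% of all promoters and 1 of the S genes (Mcm2) held. The CCAAT box (CCAAT on both strands) was in 5 S genes, 6 M genes and 37.4% of all promoters. No spelling of 1 motif contains another, but spellings of the same motif can overlap. Of the 15 genes with the largest excess in female S-phase cells, described further on, 12 had a promoter in the table, and Cdc6, Dtl and Paqr4 held the E2F motif. A match is a description of these letters only. The promoters of Mcm6 (minus strand of chr1:128359656-128359955), Mcm5 (plus strand of chr8:75109259-75109558) and Cdc20 (minus strand of chr4:118437294-118437593) show the difference between the gene sets, with the E2F motif of the MCM genes and the CHR motif of Cdc20 in capitals, overlapping matches joined.
Mcm6: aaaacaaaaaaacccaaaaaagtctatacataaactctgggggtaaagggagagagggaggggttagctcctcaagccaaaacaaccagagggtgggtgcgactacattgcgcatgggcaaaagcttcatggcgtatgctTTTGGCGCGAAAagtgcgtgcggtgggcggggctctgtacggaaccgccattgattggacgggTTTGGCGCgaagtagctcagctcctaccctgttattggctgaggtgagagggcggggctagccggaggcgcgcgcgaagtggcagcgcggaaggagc
Mcm5: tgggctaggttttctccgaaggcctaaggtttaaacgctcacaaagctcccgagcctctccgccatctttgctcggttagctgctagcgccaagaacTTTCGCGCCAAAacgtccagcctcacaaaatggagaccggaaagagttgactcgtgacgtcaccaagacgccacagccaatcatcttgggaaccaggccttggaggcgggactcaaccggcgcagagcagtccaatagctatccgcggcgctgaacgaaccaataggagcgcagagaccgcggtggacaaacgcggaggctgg
Cdc20: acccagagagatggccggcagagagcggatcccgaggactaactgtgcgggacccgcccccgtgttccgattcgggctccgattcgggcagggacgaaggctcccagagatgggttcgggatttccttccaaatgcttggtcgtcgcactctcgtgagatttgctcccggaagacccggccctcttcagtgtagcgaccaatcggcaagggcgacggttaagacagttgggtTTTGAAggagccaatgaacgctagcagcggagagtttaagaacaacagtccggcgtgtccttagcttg

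The S score set the members well apart from most cells, but the threshold fell on a continuous slope. The median member had 24.8 UMIs of the 8 genes in 10000 in males and 30.2 in females, against 1.69 and 1.97 in the other cells. The lowest member stood at 21.18 and the highest cell outside at 21.05 in males, and at 24.859 and 24.842 in females. Within 10% of the threshold lay 29 male cells inside and 32 outside, and 185 female cells inside and 181 outside. All 8 genes were detected together in 94.7% of female members and 12.6% of the other female cells, and in 33.3% and 1.45% in the shallower male library. When a gene was left out of its own score, its level in the cells then chosen was still 3.06- to 4.26-fold that of the other cells in males and 3.22- to 4.91-fold in females, and 88.5% to 95.5% of the cells chosen were the same. With every cell thinned to 2000 UMIs and members chosen again, 93 of 156 male (59.6%) and 545 of 825 female (66.1%) cells chosen were members at full depth. These values chose the cells and are given as a description.

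**Figure D1:**
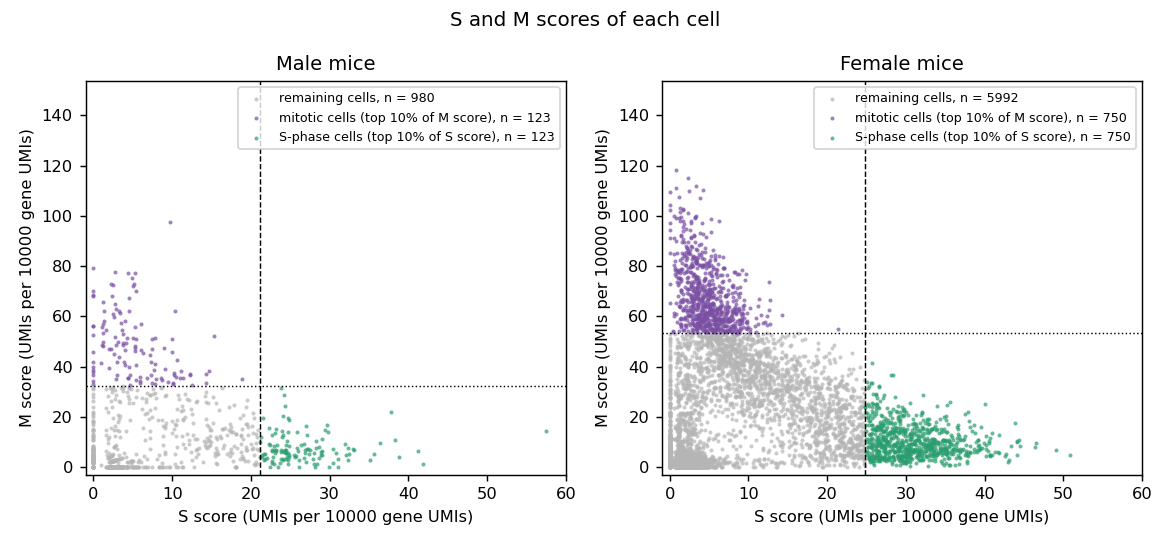
S score (x axis) against M score (y axis) of every kept cell in UMIs per 10000 gene UMIs, males left and females right. Each point is a cell, S-phase members and mitotic cells are marked by colour, lines mark the thresholds, and the members form the right-hand arm while mitotic cells form the upper arm, with 0 cells at the top of both.

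S-phase cells held more RNA than the other cells. The median member had 1.81 times as many UMIs as the median other cell of the same mouse in males and 1.83 times in females, and the ratio was above 1 in 10 of 10 mice of each sex. Medians per mouse ran from 17312 to 21974.5 UMIs in old females, 14748.5 to 16479 in young females, 7615 to 12152.5 in old males and 6735.5 to 8013 in young males. The middle mouse of these groups had 19866, 16069, 9657.5 and 7599.5 UMIs. For mitotic cells (top 10% of M score) it had 18120.5, 15774, 7859 and 7252, and for the other cells 11890, 8613, 4731 and 3885. More UMIs were thus not particular to the S-phase cells. Summed over its members, a female mouse had 356480 to 3114468 UMIs and a male mouse 36907 to 217302, so the female values are the more precise. HTODemux, which calls a barcode with more than a single hashtag a doublet, did so for 34.1% of male members against 32.5% of the other cells, and for 14.5% against 13.6% in females, and these calls were not used to remove cells. UMIs were summed over the cells of a class in each mouse, and RNA levels below are counts of a gene scaled to the total of that sum (CPM). Because the cells were chosen by their RNA, the differences between S-phase and other cells carry no test. A gene was called higher or lower at a fitted difference of at least 1.5-fold with the same sign in every mouse. Old male 5 had only 4 members and stayed out of the male fits, leaving 9 males and 10 females. By this rule 914 of 9019 genes outside the 16 of the rule were higher in females (10.1%) and 1030 lower (11.4%), and in males 144 of 3351 were higher (4.3%) and 214 lower (6.39%). The median over all genes was a log2 difference of -0.02 in both sexes.

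DNA replication genes other than those of the rule were higher in the members. Of the genes for origin licensing and the helicase, 14 of 20 tested were higher in female members and 0 lower, with a median log2 difference of 1.51, and 9 of 11 were higher in males with a median of 1.39. Mcm4, the remaining subunit of the helicase besides those in the rule, stood 2.23 higher on the log2 scale (153 against 33.6 CPM) in females and 2.08 in males. Cdc6, which loads the helicase, was 2.86 higher in females, and its level was 59.8 to 84.8 CPM across the 10 mice (median 75.9) against 6.60 to 15.95 in the other cells (median 10.4), with no overlap. Gmnn, which blocks reloading, was 1.32 higher in females and 1.28 in males. The polymerases, clamp and fork genes gave 29 of 30 higher in females (median 1.55) and 12 of 18 in males (median 1.26). Pcna, the sliding clamp, had 173 to 214 CPM in female members (median 195) and 45.3 to 62.0 in the other cells (median 49.8). In males the clamp had 344 to 661 CPM (median 451) against 98.3 to 212 (median 142). Both pairs of ranges were separate, and the log2 difference was 2.00 in females and 1.71 in males.

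Enzymes that supply the building blocks were higher with them. Of the nucleotide supply genes, 18 of 19 were higher in females (median 1.24) and 7 of 15 in males (median 1.14). Rrm2, the small subunit of ribonucleotide reductase, was at 507 to 586 CPM in female members (median 547) and 134 to 200 in the other cells (median 168), without overlap. Tyms, which makes thymidylate, was 1.61 higher on the log2 scale and Shmt1, a folate enzyme, 2.55. Genes for chromatin assembly and the copying of DNA methylation followed, with 11 of 13 higher in females (median 1.47) and 6 of 12 in males (median 1.27). Chaf1b of the histone chaperone CAF-1 was 2.64 higher in females and 2.21 in males. H2afx, a histone variant that also marks DNA breaks, was the 1 member of this list called lower in females (-0.93). Without the mitotic cells among the other cells its difference shrank to -0.50, and in males it turned from -0.44 to 0.57. H2afz, another variant, differed by 0.15 only.

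Repair and checkpoint genes were 17 of 19 higher in females (median 1.55), and 2 of 4 in males (median 1.71), Ung among them. Ung, the glycosylase that cuts uracil out of DNA, showed the largest excess in females of the genes called outside the rule. Its level was 50.5 to 110 CPM in female members (median 75.7) against 3.24 to 9.21 in the other cells (median 5.99). In males it was 53.4 to 135 (median 90.7) against 6.81 to 22.8 (median 15.1). No mouse's members reached as low as any mouse's other cells, and the log2 difference was 3.68 in females and 2.56 in males.

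Part of the genes that control the switch into S phase were higher too. DNA content was not measured, so cells about to start replication cannot be told apart from cells within S phase. Of the G1 to S control genes, 14 of 25 were higher and 3 lower in females (median 0.92), and 5 of 12 higher and 0 lower in males (median 0.86). Ccne2, a cyclin E that drives the start of replication, had the next largest excess after Ung, with 55.0 to 95.4 CPM in female members (median 70.5) and 5.10 to 9.97 in the other cells (median 6.59). Ccne1, the other cyclin E, was 2.68 higher, E2f1 2.41 higher in females and 1.95 in males, and Mybl2, a target of E2F, 2.62 higher. The repressors E2f7 and E2f8 were also among the genes called higher in females. Lower were Rbl2, a retinoblastoma relative of resting cells, and the CDK inhibitors Cdkn1b and Cdkn2d, the last by 0.83 on the log2 scale (133 against 240 CPM), whereas the CDK inhibitor Cdkn1a was among the genes called higher (0.92, 59.1 against 31.4 CPM). Ccnd3, the most abundant cyclin gene of the list, differed by 0.10.

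Genes of the later phases of the cycle were mostly lower or level. Of 30 genes of G2 and mitosis outside the rule, 13 were lower and 1 higher in female members (median -0.56), and in males 3 of 19 were lower and 1 higher (median -0.08). The other cells hold the mitotic ones, and without these the medians became -0.26 and 0.69, so that the direction in males turned. Stmn1, which takes microtubules apart, was the gene called higher, at 1527 against 941 CPM in females and 1652 against 943 in males. Of the M genes, used by the rule, Ube2c and Cdc20, which act with the anaphase-promoting complex, were lower by 3.25 and 2.45 on the log2 scale in females, while Top2a differed by -0.04 in females and -0.03 in males, which became 0.36 and 0.91 without the mitotic cells. Messengers of the replication-dependent histones mostly lack a poly(A) tail and are close copies of each other. Of these genes 4 of 28 were higher and 1 lower in females, and 0 of 6 were called in males. Over all genes 10.1% were higher in females and 4.3% in males, so the counts of higher genes are near the background and are not a result about histones. The summed histone level was higher in members of 10 of 10 females (1530 against 1154 CPM) and 7 of 10 males (1510 against 1250 CPM). In the mitotic cells it was 1432 CPM in females and 2661 in males, and in the cells of neither class 1099 and 992. Hist1h1b, a linker histone, had 457 to 669 CPM in female members (median 541) against 286 to 396 (median 340) in the other cells. Slbp, which binds histone messengers, was 1.47 higher in females and 1.27 in males.

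Members differed widely among themselves in histone RNA. The 10th, 50th and 90th percentiles of the summed histone UMIs per 10000 were 1.85, 12.4 and 33.1 over the 750 female members, whereas the origin licensing genes ran only from 10.8 to 20.4 with a median of 15.2. Across these cells histone UMIs went up with the M score, with a Spearman correlation of 0.72 in females and 0.39 over the 123 male cells, and with the list of G2 and mitosis genes the M score correlated at 0.83 and 0.67. The S score itself correlated with histones at -0.17 in females and 0.02 in males. These are descriptions across cells of pooled libraries that share a denominator, the total UMIs of each cell.

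Genes that build ribosomes were higher as well, while the proteins of the finished ribosome were close to level. Of the ribosome assembly genes, 11 of 14 were called in females (median 1.13) and 5 of 9 in males (median 1.09). Ncl, the major nucleolar protein nucleolin, was 0.91 higher in females and 0.81 in males, and Pa2g4, a growth-related ribosome-binding protein, was 1.13 and 1.14 higher. Of the cytosolic ribosomal protein genes 0 of 83 in females and 0 of 82 in males were called in either direction, with medians of 0.20 and 0.11. Mitochondrial genes gave medians of 0.12 and 0.07 with 0 called.

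**Figure D2:**
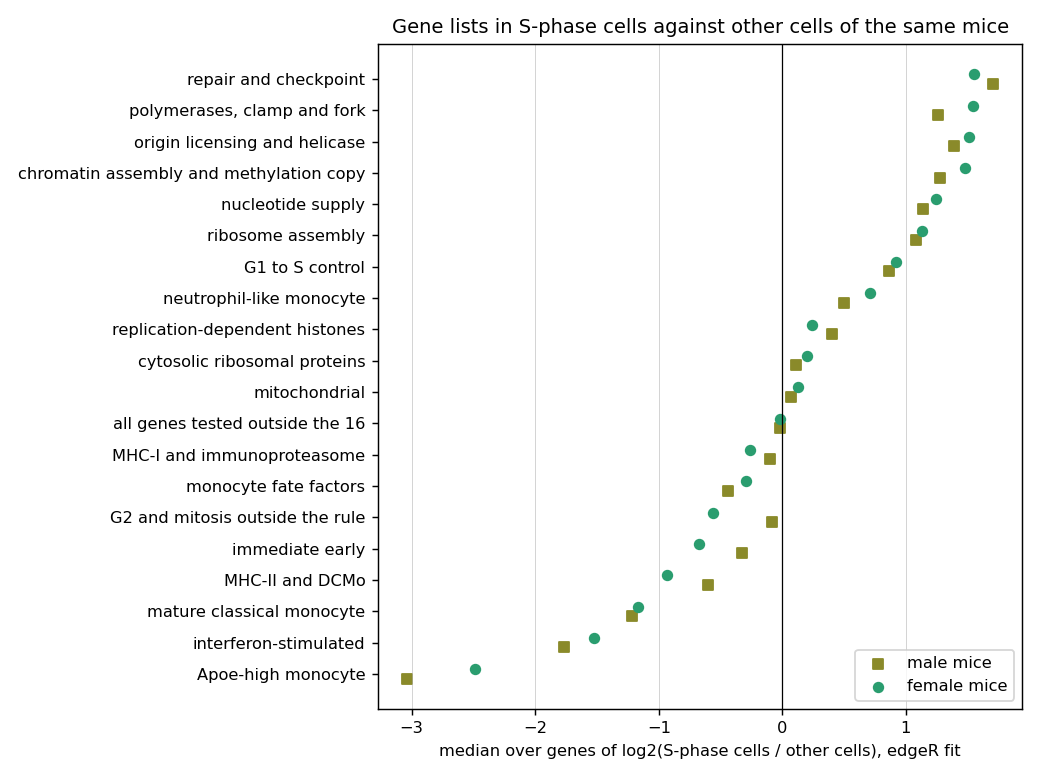
Median log2 difference of S-phase less other cells of the same mice (x axis) for each gene list (y axis), females and males. Points are medians over the tested genes of a list, and the replication lists stand between 1.14 and 1.71, the ribosomal and mitochondrial lists near 0, and the Apoe-high list at -2.49 in females and -3.04 in males.

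The members expressed the defining genes of classical monocytes, with summed marker levels (7 genes, Lyz2 the most abundant) of 18636 CPM in females and 19081 in males, but below those of the other cells (29417 and 32523). Of 15 genes of the mature classical monocyte, 12 were lower in females and 0 higher (median -1.17), and 9 of 13 in males (median -1.22). Ly6c2, which encodes the Ly6C antigen of the sort, was an exception in direction, with 2466 to 3038 CPM in female members (median 2665) and 2170 to 2928 in the other cells (median 2283), ranges that overlapped, and a log2 difference of 0.22. Lyz2, lysozyme, was at 10730 to 17600 CPM in female members (median 14825) against 19055 to 27183 (median 25406). Ccr2, the chemokine receptor through which classical monocytes leave the marrow, was at 353 to 474 CPM (median 423) against 837 to 1078 (median 980). Both were separate between the classes in every female mouse, with differences of -0.71 for Lyz2 and -1.17 for Ccr2. Csf1r, the M-CSF receptor CD115 of the sort, was lower by 0.72 in females and 1.08 in males, and Itgam, which encodes CD11b, was not analysed here.

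Genes of other monocyte states were lower too, those of the Apoe-high state and the interferon response more than the mature classical list. The mitotic cells were low in them too, with 304 CPM of summed Apoe-high genes in males and 392 in females against 195 and 218 in the members and 1827 and 1346 in the cells of neither class. Their interferon-stimulated genes summed to 149 CPM in males, where members had 166, and to 395 in females, where members had 208. All 8 Apoe-high genes tested were lower in females (median -2.49) and 4 of 5 in males (median -3.04). Apoe, the lipid carrier, was at 22.7 to 56.1 CPM in female members (median 33.6) against 196 to 599 (median 493) in the other cells, and no member cell of either sex was among the top 10% of cells by the summed Apoe-high genes. Of the interferon-stimulated genes 7 of 10 were lower in females (median -1.52) and 3 of 4 in males (median -1.77). Ifit3, an antiviral effector, was at 0 to 6.04 CPM against 10.8 to 35.1, and 0.667% of female members were among the top 10% for these genes against 11.1% of the other cells (3.27% against 16.3% after thinning to 2000 UMIs). Of the MHC-II and DCMo genes (dendritic-like monocytes), 5 of 10 were lower in females (median -0.94) and 4 of 9 in males (median -0.60). Cd74, the invariant chain, was at 47.7 to 1485 CPM (median 91.9) in female members against 420 to 5274 (median 865), and the ranges overlapped through old mice 1 and 5. Of the immediate early genes 5 of 9 were lower in females (median -0.67) and 1 of 7 in males (median -0.33). The most abundant of those called was Junb, an AP-1 subunit, with 134 against 276 CPM in females. Among the fate factors Zeb2, which is needed for the classical fate, was lower by 0.79 in females and 0.68 in males, and Irf8, needed for monocyte development, was 0.30 and 0.58 higher and not called.

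Neutrophil-like monocytes (NeuMo) were over-represented among the members, but their genes were not higher in every mouse. Of the 10 NeuMo genes 0 were called higher in females (median 0.71). Mpo, myeloperoxidase, was at 735 to 2391 CPM (median 1596) in female members against 600 to 1158 (median 887), and Elane, neutrophil elastase, at 1742 to 5828 (median 3516) against 1682 to 2798 (median 2042). These ranges overlapped, and both genes were higher in the members of 9 of 10 females. Among the top 10% of cells by the summed NeuMo genes were 25.3% of female members against 8.31% of the other cells, and 25.2% against 8.34% in males. With every cell thinned to 2000 UMIs, the members chosen again and cells below that depth left out, the shares were 28.2% and 7.74% in females and 30.1% and 7.11% in males. In males the summed NeuMo level was nevertheless lower in the members, at 5844 against 7789 CPM, and S100a8, an alarmin of granulocytes and monocytes, was the 1 gene called lower (541 against 3117 CPM). The summed neutrophil markers (7 genes) were at 42.8 CPM in male members, most of it Mmp8, and at 1719 in the other male cells, where Camp was the most abundant (964 CPM, against 6.50 in the members), and their part in that level was not tested. In the members the NeuMo genes spread from 9.90 to 279 UMIs per 10000 between the 10th and 90th percentile in females, and they correlated with the mature classical genes at -0.74 over the 750 female cells and -0.41 over the 123 male cells.

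Markers of other cell types were mostly lower in the members than in the other cells or near them, with B cell and progenitor markers in females and erythroid and progenitor markers in males somewhat higher. Summed T or NK markers (7 genes) were at 4.40 CPM in female members and 62.7 in the other cells, with Ccl5 the most abundant and Gzma at 0, and at 3.31 against 11.4 in males, where 6 of the 7 were at 0. Neutrophil markers were at 57.0 against 334 CPM in females, and in males Ly6g, Ltf and Retnlg were at 0. B cell markers were at 35.1 against 30.2 in females and 15.7 against 18.6 in males, nearly all Cd79b, with Igll1 at 0 in both. Erythroid markers were at 4.47 against 8.91 in females and 17.8 against 12.3 in males. Conventional dendritic cell markers stood at 14.4 against 22.8 in females and 32.6 against 34.6 in males, plasmacytoid ones at 208 against 282 and 182 against 192, led by Bst2, and basophil or mast cell ones at 1.39 against 1.43 and 26.6 against 180. Progenitor markers were at 359 against 327 CPM in females and 603 against 586 in males. Most of that level was Cd48, which itself was lower in the members, at 272 against 285 CPM in females and 520 against 545 in males. Kit and Gata2 of this list are not reported here. Myb, a transcription factor of dividing progenitors, was 1.43 higher on the log2 scale (46.2 against 19.0 CPM) in females. Cd34, a surface protein of progenitors, was at 27.97 against 15.1 CPM and Sox4 at 9.80 against 5.97, each higher in 9 of 10 females and not called.

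The 15 genes with the largest excess outside the rule in females included Ung, Ccne2, Paqr4, Cdc6, Chd3os, Ccne1, Chaf1b, Mybl2, Shmt1, Zmynd19, E2f1, Dhrs13, Gtf2ird1 and Dtl, with log2 differences from 3.68 down to 2.35. Most have a known part in replication or its control, such as Dtl, the receptor subunit of the ligase that degrades Cdt1 during S phase (73.1 against 15.5 CPM). Also among them were Paqr4, a membrane receptor-like protein (17.7 against 2.28 CPM), Chd3os, an antisense transcript (27.5 against 4.17 CPM), and Zmynd19 (37.1 against 7.11 CPM). The lowest among called genes were Ccl5, Ifit3, Prr5l, Atf3, Skint3, Apoe, Pltp, Sirpb1c, Ifit1 and Rtp4, with differences from -3.80 to -3.32. Ccl5, a chemokine of T and NK cells, was at 2.41 against 40.7 CPM, and Pltp, a phospholipid transfer protein, at 1.07 against 12.7.

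Surface proteins gave a measure that the choice of cells had not used. Counts of 6 antibodies were available for females, taken as the mean per cell of log2(count + 1), and the difference between members and other cells of each mouse was tested by a two-sided exact sign-flip permutation test over 10 mice (smallest p 0.00195), with Benjamini-Hochberg adjustment over the antibodies. CD11b, the integrin of mature myeloid cells, was at 4.31 to 4.77 in members (mean 4.49) and 5.18 to 5.58 in the other cells (mean 5.39). The ranges were separate, and the difference was -0.90 ± 0.14 (SD, n = 10), lower in 10 of 10 mice (exact permutation p = 0.00195, adjusted 0.00293). MHC-II was lower by 0.39 and CD11c, an integrin of dendritic cells, by 0.31, while Flt3, a cytokine receptor of progenitors and dendritic cells, was lower by 0.26, each in 10 of 10 mice and with the same p. CD115 was 0.17 higher in 9 of 10 mice (exact permutation p = 0.00391, adjusted 0.00469), although Csf1r RNA was lower. The CD115 call was lost with the top 5% of S score taken. Ly6C was at 8.95 against 8.93 and not different by the test (0.03, higher in 7 of 10 mice, exact permutation p = 0.305). CD11b, CD115 and Ly6C were also used for the sort, which limits their range.

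Relative to the mean of the logs of the 6 antibodies in a cell (centred log ratio), the differences of Flt3 (0.02, exact permutation p = 0.717) and CD11c (-0.04, exact permutation p = 0.197) were lost and that of Ly6C became 0.30 (exact permutation p = 0.00195). CD11b (-0.62), CD115 (0.45) and MHC-II kept their direction and call, MHC-II at -0.11 (lower in 8 of 10 mice, exact permutation p = 0.0234, adjusted p = 0.0352). The median cell had 581 antibody UMIs among members and 598 among other cells. Between old and young members 0 of 6 antibodies differed (exact permutation tests, lowest p = 0.175, lowest adjusted p = 0.543, 5 against 5 mice, smallest p possible 0.00794). MHC-II in old members was 6.27 in old mouse 1 and 3.42, 2.80, 4.82 and 5.25 in the others, against 4.02, 3.11, 3.88, 4.57 and 4.33 in young mice, so the old mice lay on both sides of the young.

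**Figure D3:**
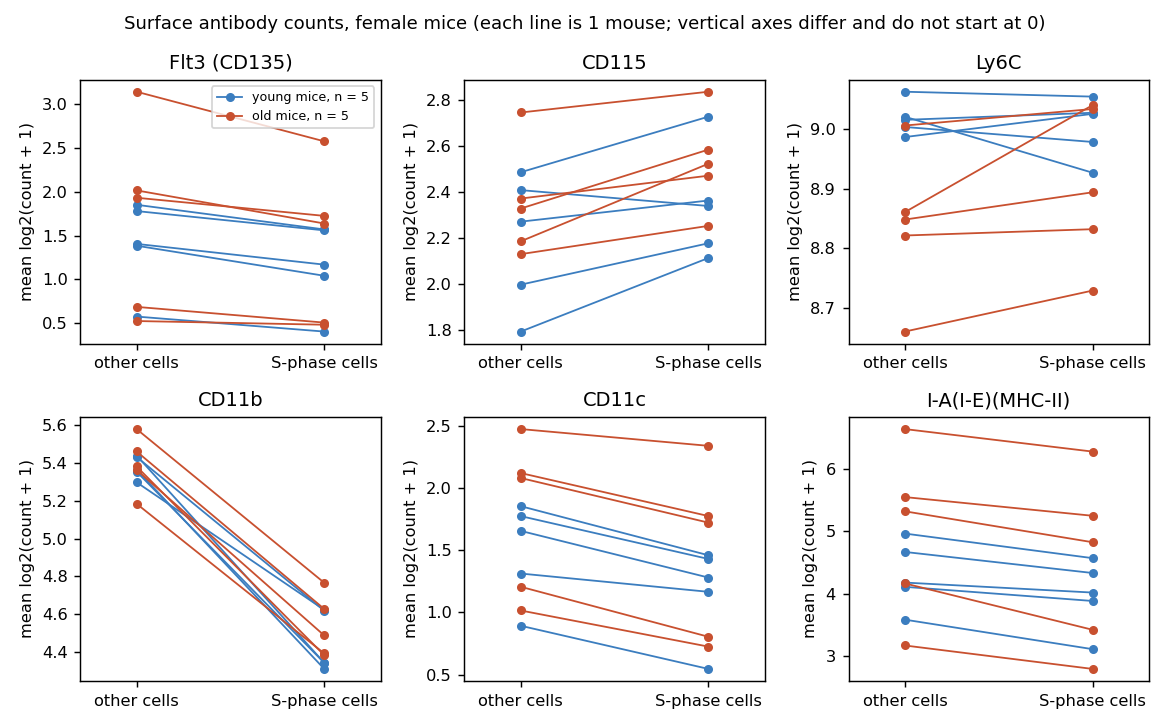
Mean log2(count + 1) of the 6 surface antibodies (y axis) in S-phase and other cells of the 10 female mice. Each line joins both values of a mouse, and all 10 lines for CD11b go down toward the S-phase cells.

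How common S-phase cells were did not differ by age beyond the spread between mice. The share of S-phase cells was 12.6%, 6.03%, 13.1%, 16.3% and 7.14% in old males 1 to 5 and 6.21%, 9.70%, 11.4%, 9.45% and 10.7% in young males. In females it was 10.3%, 13.1%, 9.02%, 9.22% and 13.6% in old mice and 9.62%, 9.55%, 9.05%, 9.96% and 9.24% in young mice. Old males 1, 3 and 4 and old females 1, 2 and 5 stood above every young mouse of their sex. Old male 5 and old female 4 lay within the young range. Old male 2 (6.03% against 6.21%) and old female 3 (9.020% against 9.054%) lay just below the lowest young mouse. Means were 11.05% ± 4.33 in old and 9.49% ± 1.99 in young males (SD, n = 5 each, two-sided exact permutation p = 0.5), and 11.05% ± 2.15 against 9.49% ± 0.35 in females (exact permutation p = 0.214, adjusted over the sexes 0.429). The old minus young difference was 1.56 percentage points in each sex, and its difference between the sexes was not detectable (permutation p = 0.9997). Because the threshold is set in each library, the share in a sex is fixed near 10% and only its split between mice is a measurement. The share moved with the settings: with the top 20% of S score taken, old males stood 6.57 points above young (exact permutation p = 0.0238, adjusted 0.0476), with the top 5% 1.44 below, and in females with a leading hashtag of 90% or more the old mice were 2.94 points below the young (exact permutation p = 0.0397, adjusted 0.0794). Without old female 3 the difference was 2.07 points (exact permutation p = 0.0476), and without old male 4 it was 0.24. The leading hashtag held a median of 87.1% of hashtag UMIs in old and 89.9% in young female members, against 89.7% and 92.4% in the other cells.

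**Figure D4:**
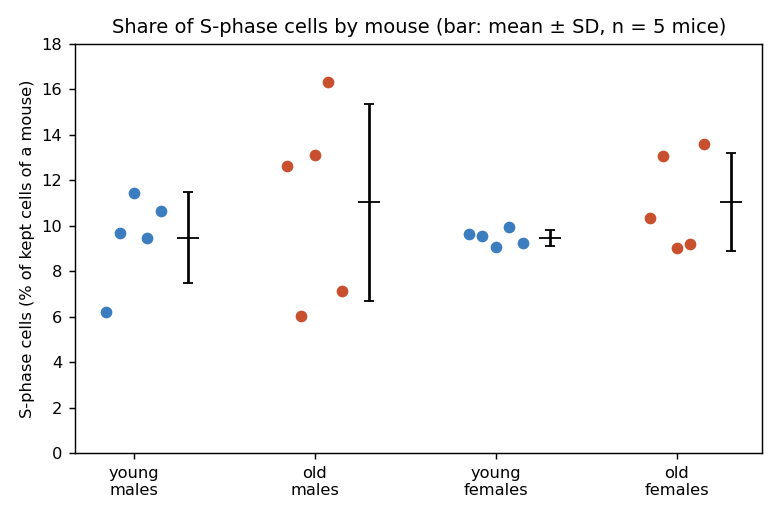
Share of S-phase cells among the kept cells of each mouse in percent (y axis), by age and sex. Points are mice and bars are the mean with SD, and the old mice spread from just below the young mice to well above them in males and females.

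Within the S-phase cells, age changed genes of antigen presentation and of the immediate early response in females, along with a few genes of other monocyte lists. Counts summed over the members of each mouse were tested with edgeR's quasi-likelihood test with Benjamini-Hochberg adjustment over all genes. In females 83 of 7328 genes passed an adjusted p of 0.05 (1.13%), 49 higher and 34 lower in old mice, with 806 at an unadjusted p under 0.05. For 49 of the 83 the old and young mice did not overlap. Over all 7328 genes, 91 had every old mouse above every young one and 95 every old mouse below. The overlap was read from the same values as the test and is a description. Of the 83, 59 were also called among the 484 of 10182 genes called in the other cells of the same mice. The number called was 47, 43 and 41 without young mouse 2, 4 or 5, 53 with DESeq2 and 15 with a leading hashtag of 90% or more. The test on summed counts does not separate fewer cells of a state from less RNA per cell.

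Of 13 MHC-I and immunoproteasome genes, 7 rose with age in females and 0 fell (median log2 difference 0.36, against -0.01 over all genes). H2-K1, a classical MHC-I heavy chain, was at 1535, 1020, 879, 905 and 1057 CPM in old females and 607, 705, 771, 690 and 683 in young females. Every old mouse stood above every young one, and the log2 difference was 0.64 ± 0.10 (SE, edgeR adjusted p = 0.000581). H2-Q7, a non-classical MHC-I gene, was at 124, 32.4, 23.1, 20.7 and 58.7 CPM in old and 7.91, 8.86, 0, 10.3 and 12.03 in young females, again without overlap (2.36 ± 0.43, edgeR adjusted p = 0.00302). B2m, the light chain, rose by 0.41 and Psmb8, an immunoproteasome subunit, by 0.36. MHC-I genes are close copies of each other, so reads may be split among them. AW112010, a transcript that regulates inflammatory cytokines, was at 186, 68.4, 81.9, 93.9 and 83.4 CPM in old and 31.6, 31.0, 30.9, 41.7 and 42.6 in young females (1.41 ± 0.20, edgeR adjusted p = 0.000385). Old mouse 1 was the highest for all 3 of the genes given by mouse here, and their calls held under every alternative that was run.

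The MHC-II genes carried the largest fold changes among the 9 genes of antigen presentation followed here, but rested on few mice. Of 9 MHC-II and DCMo genes 5 passed in females and 0 fell (median 1.41). H2-Aa, an MHC-II alpha chain, was at 366, 28.7, 10.7, 37.9 and 149 CPM in old females 1 to 5 and 29.7, 8.86, 8.42, 13.2 and 5.55 in young females. Cd74 was at 1485, 104, 58.1, 153 and 483 CPM in old and 141, 62.0, 47.7, 80.3 and 72.2 in young females. For both genes old mice 1, 4 and 5 stood above every young mouse, and old mice 2 and 3 within the young range. The log2 differences were 3.02 ± 0.67 for H2-Aa (edgeR adjusted p = 0.0195) and 2.40 ± 0.55 for Cd74 (0.0210), and H2-Ab1 and H2-Eb1 gave 2.39 and 2.86 (0.0415 and 0.0444). DESeq2 called none of the 4, and over the alternatives the call was lost in 8 of 18 for Cd74, 6 of 17 for H2-Aa, 10 of 17 for H2-Ab1 and 9 of 15 for H2-Eb1. The log2 difference then ran from 1.83 to 3.40 for H2-Aa and, lowest without old mouse 1, from 1.26 to 3.03 for Cd74. Cells among the top 10% by MHC-II genes were 1.87% of female members, 14 cells in all, of which old mouse 1 had the most (19.2% of its members, against 0% to 2.94% in each other female). The mean per mouse was 4.63% in old and 0.339% in young females, and 0.980% in old females without that mouse (left out after seeing the data).

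The immediate early genes went the other way. Of 8 tested 4 fell in old females and 0 rose (median -0.52). Fos, an AP-1 subunit, was at 235, 161, 205, 169 and 162 CPM in old and 265, 318, 252.5, 266 and 269 in young females, with no overlap (-0.58 ± 0.09, edgeR adjusted p = 0.000581). Jun, its partner, was at 129, 92.5, 109, 80.8 and 82.7 CPM in old and 147, 240, 115, 143 and 201 in young females. Old mouse 1 overlapped the lowest young mouse, and the difference was -0.82 ± 0.13 (edgeR adjusted p = 0.00117). Dusp1, a phosphatase induced with them, fell by 0.93, and Btg2, an early-response gene that restrains division, fell by 0.75. The chemokine gene Ccl3 fell by 1.40 (11.2 to 24.1 CPM in young and 3.45 to 9.49 in old mice), and Ldhb, a lactate dehydrogenase, by 0.94.

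The largest rises among genes without overlap of the ages were C130026I21Rik (2.60), H2-Q7, AW112010, Shtn1 (1.25), Chil3 (1.23), Fcgr1 (1.14), AY036118 (0.93), Bcl3 (0.91), Ifi27l2a (0.82) and Selm (0.81). Chil3, a chitinase-like protein of monocytes, was at 2264, 752, 869, 839 and 672 CPM in old and 654, 420, 236, 436 and 458 in young females, with old mouse 1 far above the others, and DESeq2 did not call it. Fcgr1, the high-affinity Fc gamma receptor, was at 26.7 to 69.9 CPM in old and 15.8 to 23.1 in young mice. The largest falls among genes without overlap of the ages were Ccl3, Ldhb, Dusp1, Msr1 (-0.88), Btg2, Stard4 (-0.71), Snapin (-0.70), Hk2 (-0.58), Fos and Stxbp6 (-0.57). Msr1, Stard4, Snapin and Hk2 lost their calls in 10 to 14 of 18 alternatives, Dusp1 in 5 of 17 and Ifi27l2a in 4 of 18, and Shtn1, Fcgr1, AY036118, Bcl3, Selm, Ldhb, Stxbp6 and B2m in 1 or 2.

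None of the 8 S genes passed by age in females. Mcm5 was at 422, 423, 414, 444 and 427 CPM in old and 430, 472, 516, 447 and 489 in young females, ranges that overlapped through young mouse 1 (-0.14 ± 0.06, edgeR adjusted p = 0.332). The members were chosen by the sum of these genes, which limits how far each could differ. Of the replication lists that the rule did not use, 0 of 19 origin licensing genes, 0 of 30 polymerase and fork genes, 0 of 13 chromatin genes, 0 of 19 nucleotide supply genes and 0 of 19 repair genes passed, with medians between -0.07 and 0.08. With 1.13% of all genes called, so few calls are near the background, and the count is not a result about these genes. Of the G1 to S control genes 1 of 24 passed, Cdkn2d, which was higher in old mice. Of the mature classical genes 2 of 15 rose (Chil3 and Vcan) and Lyz2 fell, and of the fate factors Klf4 and Zeb2 fell among 8. Of 5 Apoe-high genes Gngt2 rose by 0.65 and Apoe fell by 0.65 (edgeR adjusted p = 0.0210 and 0.0468), and of 10 NeuMo genes Mif rose.

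In males 0 of 1596 genes passed (0%, edgeR, 4 old against 5 young mice since old male 5 was left out), with 80 at an unadjusted p under 0.05 and 1 called by DESeq2. The lowest adjusted p was that of Jun. It was at 221, 91.8, 226 and 221 CPM in old males 1 to 4 and 540, 355, 309, 449 and 432 in young males, without overlap (-1.02 ± 0.20, edgeR adjusted p = 0.0536). Dusp1 was 1.62 lower, AW112010 1.65 higher and B2m 0.37 higher on the log2 scale in old males, none past the threshold. Of the 83 genes called in females 40 could be tested in males, where 31 had the same direction and 10 an unadjusted p under 0.05. Between the sexes the difference itself was not tested.

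**Figure D5:**
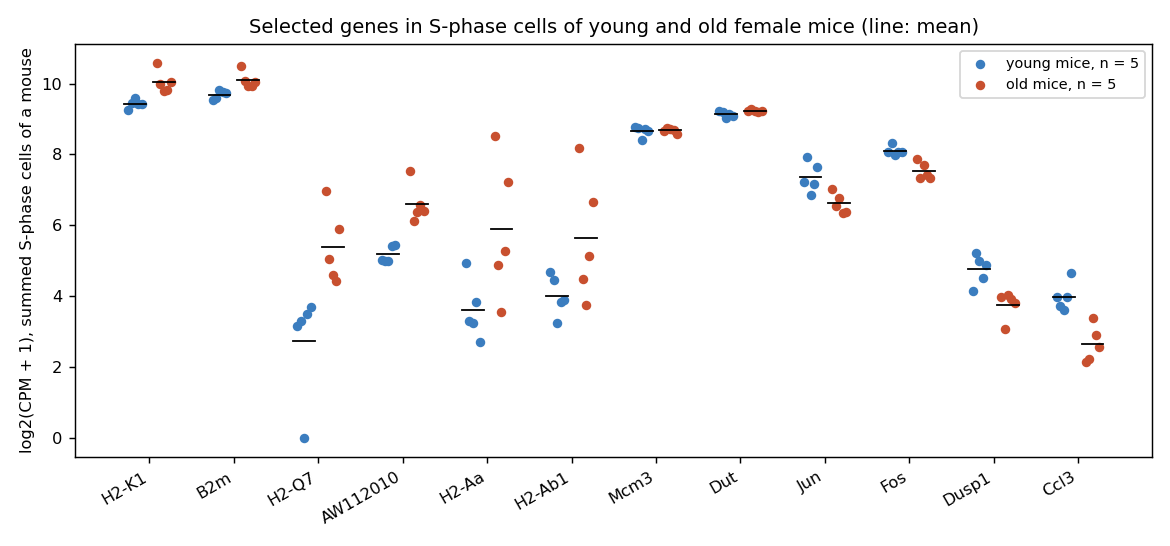
Level as log2(CPM + 1) in the summed S-phase cells of each female mouse (y axis) for 12 genes (x axis), with young and old mice in different colours. Points are mice and lines are means of 5 mice, and H2-K1 and Fos show old and young mice apart, Mcm3 and Dut show them together, and H2-Aa shows old mice spread from the young range up to 366 CPM.

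Whether age acted differently on S-phase cells than on the other cells of the same mice was tested by the age-by-class term of edgeR with mouse as a block. In females 1 of 9420 genes passed (0.0106%, 504 at an unadjusted p under 0.05, and DESeq2 also called 1), and in males 0 of 4323 (0%, edgeR, 198 at an unadjusted p under 0.05, DESeq2 0). The female gene was Camp, an antimicrobial peptide of neutrophil granules (4.42 on the log2 scale, edgeR adjusted p = 2.19e-15). In members Camp was at 2.59, 4.62, 84.8, 4.04 and 4.32 CPM in old and 7.91, 3.32, 2.81, 3.53 and 2.78 in young females, and 131 of the 143 UMIs of old mouse 3 came from 1 cell. In the other cells it was at 4.98, 4.44, 146, 4.91 and 4.85 CPM in old and 176, 104, 681, 78.5 and 160 in young females. All young mice and old mouse 3 were high there, each through 1 to 4 cells with over 20 Camp UMIs. Ngp, another neutrophil granule gene, followed at 51.9 to 557 CPM in the other cells of young mice and 2.85 to 78.7 in old mice, and the 7 neutrophil markers summed to 233 to 1411 and 74.4 to 324 CPM, although the sort had left out Ly6G+ cells. Their part in the Camp result was not tested. Without old mouse 3 Camp kept its call (4.85, edgeR adjusted p = 2.57e-07) and 3 genes passed, as also without young mouse 1, and with the other cells reduced to the number of S-phase cells 0 genes passed.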

How the data were processed

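The series measured single-cell RNA of sorted mouse marrow monocytes, 1 library per sex. The deposited UMI counts per gene, hashtag or antibody and barcode were made by the authors with Cell Ranger (4.0.0 with STAR 2.5.1 and mm10 per the submitters' processing notes; the matrix headers name 7.0.0 for males and 3.1.0 for females) and hold no normalization. Barcodes with over 200 genes, under 5% mitochondrial UMIs and a leading hashtag of 70% or more of hashtag UMIs were kept: 1226 of 1227 in males and 7492 of 10433 in females. Each hashtag was matched to its mouse by the authors' hashtag table. The authors' removal of doublets with HTODemux served as an alternative.

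The members, gene lists and tests were chosen with earlier results of these data known. Counts were summed per mouse over S-phase and over other cells. edgeR 4.0.16 (TMM, filterByExpr, quasi-likelihood test) was used in R 4.3.3, with Benjamini-Hochberg adjustment at 0.05 over all genes tested and mice of 5 or more S-phase cells. Shares and antibodies were tested by two-sided exact permutation over mice. DESeq2 1.42.0, Seurat 5.3.0 (HTODemux), other thresholds, thinning to 2000 UMIs and leaving out each mouse were alternatives. Scripts were tested on simulated data. The genes named were the 16 of the rule, the 4 most abundant of each list in female members, the 15 largest rises and 10 largest falls called in females, for age the 10 largest in each direction without overlap and 9 genes of antigen presentation, the 5 smallest adjusted p of the age-by-class term, and markers of other cell types. Other genes of the lists, and the genes given by mouse, were picked after their values were seen. Some genes that the rule names are not reported here. Mice are separate animals, and counting error limits the male values most.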

Additional observations from a re-analysis of the deposited data

Results flagged for a closer look

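In 6 of 92 groups of 5 mice a single mouse stood far from the others (gap to the nearest mouse over the range of the group above 0.71), and chance gives about 1 in 20 such groups. These were summed levels of gene lists in S-phase cells. Among old males, mouse 4, with 8 cells, was low for chromatin assembly and methylation copy (6015.74 CPM, the others 6548 to 6720). Among young males, mouse 2 was low for immediate early genes (1421.03 CPM, the others 1962 to 2066) and mouse 5 low for mitochondrial genes (29637.4 CPM, the others 32289 to 32841). Among old females, mouse 5 was high for nucleotide supply (3435.29 CPM, the others 3141 to 3212) and for ribosome assembly (3896.58 CPM, the others 2907 to 3152), and mouse 1 was high for MHC-I and immunoproteasome genes (8905.61 CPM, the others 6335 to 7076).

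The age difference of Camp in females differed between S-phase and other cells by 4.42 on the log2 scale (edgeR adjusted p = 2.19e-15). Among the other cells, 1 to 3 with over 20 Camp UMIs were found in each young mouse, 4 in old mouse 3 and 0 in the remaining old mice, and among the S-phase cells 1, in old mouse 3. Their part in the result was not tested.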

How the results depend on the processing

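Of 151 alternative values of the 10 main results, 125 kept their direction and side of the threshold, or a count within 1.5 times. The share of S-phase cells in males turned to -1.44 percentage points with the top 5% of S score and passed at 6.57 with the top 20%; in females it turned to -2.94 with a leading hashtag of 90% or more. Leaving out each mouse gave 0.243 to 2.82 points in males and 0.923 to 2.07 in females, the last without old mouse 3. Genes called in S-phase against other cells were 358 in males, 137 after thinning (69 of them among the 358), 225 with HTODemux singlets (177 of them; chosen after seeing the data), 480 with the top 5% (233 of them), and 325 to 485 without each mouse; in females 1944 became 838 after thinning (627 of them shared) and 1936 to 2228 without each mouse. By age, the male count of 0 became 1 with DESeq2, with a hashtag of 90% and with the top 20%, 15 without a filter on low counts, and 0 to 4 without each mouse. The female count of 83 became 53 with DESeq2, 194 without a filter, 15 with a hashtag of 90%, and 41 to 103 without each mouse. The age-by-class count became 1 without a filter and 0 to 1 without each mouse in males. In females it became 9 without a filter, 0 with the other cells downsampled and 1 to 3 without each mouse. Antibodies that differed numbered 5 to 6 without each mouse, and 0 by age; with the top 5% of S score CD115 lost its call (exact permutation p = 0.146). Apart from the alternatives' construction (fewer cells, UMIs or genes), the causes were not tested. Of 1933 alternative values of single genes, 99 lost a call, 4 gained 1, 19 moved and 0 reversed.

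The mouse number as a replicate block gave 90 calls in females and 0 in males. The deviations of mice of the same number did not correlate above 0.1 in S-phase cells. This cannot show whether such mice shared more than the number. The depth of the male library, with 4 to 26 S-phase cells per mouse, limits what was detectable there.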

Other observations

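Mitotic cells, the top 10% of M score, are another group of dividing cells of the sort, and cells below both thresholds may divide too. Their share was 12.9% ± 9.95 in old and 9.53% ± 2.33 in young males (SD, n = 5 each, two-sided exact permutation p = 0.770). Old male 4 stood at 30.6% and the other old males between 6.90% and 10.2%, and without it the old mean was 8.53%, below the young one (exact permutation p = 0.468; left out after seeing the data). The share was 10.2% ± 2.26 in old and 9.77% ± 0.80 in young females (exact permutation p = 0.667). The median mitotic cell carried 4.49 UMIs of the 8 S genes per 10000 in males and 4.44 in females, above the median other cell and far below the median S-phase cell. Summed over the cells of a mouse, the same genes were on average lower in mitotic than in other cells. Their means were 517 against 607 CPM in males and 480 against 711 in females.

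Among female S-phase cells, the mean share per mouse that stood in the top 10% by neutrophil-like genes was 27.6% in old and 24.2% in young mice. In males it was 26.3% and 24.0%, with old mice from 0% to 46.2%. Without old male 3 the old mean was 21.4%, below the young one. After thinning, with members chosen again, the male means were 40.3% in old and 26% in young mice. Old males then ran from 25% to 54.5% and young males from 20% to 33.3%. With each old male left out in turn, the old mean was 36.7% to 44.1%, above the young one. In females the means after thinning were 31.7% in old and 25.2% in young mice. These differences were not tested.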
